A study of Rattus norvegicus with 10 samples.

Results

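Splicing factors and RNA-binding proteins were taken as the rows of the gene count table whose symbol begins with Srsf or Rbm and a digit, with Hnrnp, Sf3a, Sf3b or Tra2, or equals Clk1, Clk2, Clk3 or Clk4. The rule uses names alone, and it found 71 genes among 17168 rows: 11 SRSF, 16 HNRNP, 30 RBM, 8 SF3, 4 CLK and 2 TRA2 genes. All 71 passed the filter on low counts. RNA was sequenced from left hippocampi of 10 males of the TgF344-AD line, whose human mutant APP and presenilin transgenes make it a rat model of Alzheimer's disease. Starting at 5 months of age, 5 rats were fed ibudilast, which inhibits phosphodiesterases, in their chow over 6 months, and 5 untreated rats ate plain chow. All 10 were perfused with cold buffer under ketamine and xylazine, and their tissue was taken at 11 months of age. Only the ibudilast tissue was kept in RNAlater-ICE, so drug and storage cannot be told apart in any comparison. All groups carry the transgenes, and rats without them were not analysed here.

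Splicing factors decide which exons of a primary transcript are joined. SR proteins (SRSF genes) mostly bind exons through an RNA recognition motif and favour their inclusion through an arginine and serine rich domain, while many hnRNP proteins bind the same transcripts and oppose it. CLK kinases phosphorylate the arginine and serine rich domain in the nucleus, and this sets where SR proteins reside and how active they are. SF3A and SF3B subunits are parts of the U2 small nuclear ribonucleoprotein, which recognises the intron branch point. The RBM genes share a naming convention and an RNA recognition motif rather than 1 function. In neurons these regulators shape the isoforms of receptors, channels and synaptic proteins.

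Library totals ran from 14806807 to 17114238 counts with ibudilast and from 15984438 to 18533520 without. The 71 genes together held 0.640 ± 0.0292% of counts in ibudilast rats and 0.609 ± 0.0408% in untreated rats (SD, n = 5 each). Untreated replicate 3 lay apart from its group in several results: ribosomal RNA genes took 11.4% of its counts, against 5.88 to 11.9% in ibudilast rats and 4.07 to 7.42% in the other untreated rats. In CPM (a gene's count relative to the library size, itself scaled by TMM, the trimmed mean of M values), choroid plexus markers summed to 7010 in ibudilast replicate 1 and 7570 in untreated replicate 2, against 24.9 to 342 CPM in the other 8 rats. Oligodendrocyte markers (12 genes, 7 of them higher with ibudilast, none at 0) summed to 16300 to 19400 CPM in ibudilast rats and 7940 to 15500 CPM in untreated rats, without overlap. Excitatory neuron markers (10 genes, 4 of them lower with ibudilast, none at 0) summed to 2470 to 7450 CPM in ibudilast rats and 6450 to 10200 CPM in untreated rats. Endothelial markers (8 genes, 5 of them lower with ibudilast, none at 0) also separated the groups, in the lower direction. Their sums were 154 to 299 CPM in ibudilast rats and 321 to 595 CPM in untreated rats. Astrocyte, interneuron and microglia sums overlapped between the groups. In bulk tissue, fewer cells of a type and less RNA per cell cannot be told apart, and the part of these shifts in the results was not tested.

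With ibudilast, 22 of the 71 genes were higher, 20 were lower and 29 did not pass (edgeR's quasi-likelihood test with Benjamini-Hochberg adjustment over 12356 genes, adjusted p under 0.05). Among all genes tested, 47.1% passed, 24.3% higher and 22.8% lower, against 59.2% of the 71. All 4 CLK kinases rose, as did 6 of 11 SRSF genes and 1 of the 2 TRA2 genes. Of the 16 HNRNP genes, 10 fell and 2 rose. RBM and SF3 genes were split, at 7 higher and 4 lower of 30, and at 2 higher and 4 lower of 8. The median log2 fold change was 1.15 for CLK, 0.30 for SRSF, 0.0021 for RBM, −0.071 for SF3 and −0.26 for HNRNP genes, and 0.020 for all genes tested. No test between the families was made. With library size alone in place of TMM factors the split was 22 higher to 12 lower (64.7% of calls higher, against 52.4%). Only the lower count of the 71 changed. Among all genes tested both shares moved, to 27.6% higher and 18.6% lower. In that setting SF3 genes were split at 2 higher and 1 lower. Leaving out ibudilast replicates 1 and 4 and untreated replicates 2 and 3, which an earlier analysis of these data had set apart, gave 20 higher and 19 lower genes. Of all genes tested, 28.3% were then higher and 27.4% lower.

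**Figure D1:**
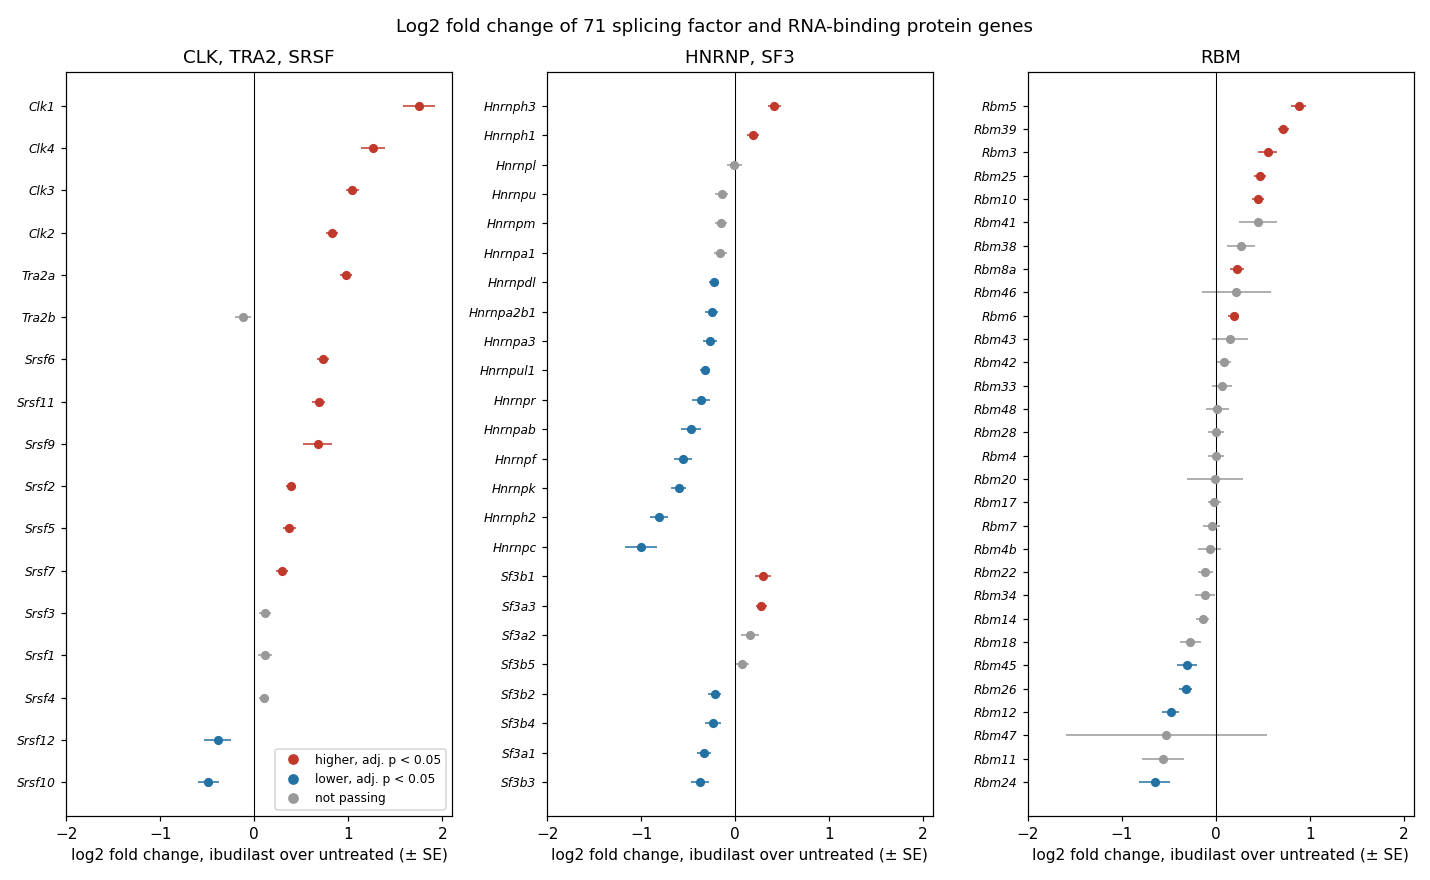
Log2 fold change of each of the 71 genes, ibudilast over untreated, with its SE, ordered within families; red points are higher and blue points lower at an adjusted p under 0.05, and grey points did not pass. All 4 CLK genes lie right of 0, and 14 of the 16 HNRNP genes lie left of it.

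The CLK kinases had the largest median change of the families. Clk1 was at 144, 117, 131, 150 and 137 CPM in ibudilast replicates 1 to 5, against 32.5, 38.1, 60.7, 39.0 and 31.7 CPM in untreated replicates 1 to 5. The lowest ibudilast rat was well above untreated replicate 3, the highest of its group. The log2 fold change was 1.75 ± 0.17 (SE, adjusted p = 3.92e-05), or 3.36-fold, and 1.91 without untreated replicate 3. Clk4, a close relative of Clk1, was at 29.1, 26.1, 25.2, 30.2 and 32.6 CPM in ibudilast rats, against 10.2, 12.5, 13.9, 13.7 and 9.38 CPM in untreated rats (1.26 ± 0.13, adjusted p = 4.47e-05). Because the 2 genes are related, reads could be shared between them. Together they reached 164 ± 14.8 CPM in ibudilast rats and 52.3 ± 13.4 CPM in untreated rats (SD, n = 5 each, exact permutation test, two-sided, p = 0.00794, adjusted p = 0.0159 over 4 such sums), the smallest p that 252 assignments can give. As neither gene overlapped between the groups, their sum could not overlap either. This p was thus fixed by the values above, and it does not show whether reads were shared.

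Clk3 was at 83.6, 82.3, 88.6, 89.5 and 90.1 CPM in ibudilast rats, against 40.0, 42.5, 48.3, 39.5 and 40.5 CPM in untreated rats. Replicates of a group lay close together and the groups stood far apart, with a log2 fold change of 1.04 ± 0.07 (adjusted p = 1.03e-05), the 18th smallest p of 12356 genes. Clk2 rose by 0.83 ± 0.07 (adjusted p = 1.88e-05), to 38.6 ± 1.68 CPM in ibudilast rats, against 21.8 ± 1.503 CPM in untreated rats (SD, n = 5). None of the 4 kinases overlapped between the groups. Each kept its call under all alternatives tried, and whichever rat was left out the lowest log2 fold change was 0.79, that of Clk2.

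Promoter sequences were matched from RefSeq (build GRCr8) for 65 of the 71 genes, at 72 annotated starts; Tra2a was among the 6 without an entry. The 250 bases before the start are shown for the CLK kinases, which moved together, and for Srsf6 and Hnrnph2, which moved in opposite directions. Capitals mark 3 motifs on either strand: the core of the cAMP response element (TGACG, or TGACGTCA for the full element), the GC box (GGGCGG) and the CCAAT box. Lines run 5′ to 3′ on the strand of the gene. Of the 2 Clk4 starts listed, the one shown holds the full element, which begins at base −136. The other start, which is not shown, has 0 TGACG cores, 0 GC boxes and 2 CCAAT boxes, and thus lacks the full element.
Clk1, chr9:67453181-67453430, minus strand: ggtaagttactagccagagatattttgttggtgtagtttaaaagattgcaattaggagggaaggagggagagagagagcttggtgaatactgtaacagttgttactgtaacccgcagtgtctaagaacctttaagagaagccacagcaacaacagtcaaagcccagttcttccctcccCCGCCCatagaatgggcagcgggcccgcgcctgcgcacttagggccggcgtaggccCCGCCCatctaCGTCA
Clk2, chr2:176868173-176868422, plus strand: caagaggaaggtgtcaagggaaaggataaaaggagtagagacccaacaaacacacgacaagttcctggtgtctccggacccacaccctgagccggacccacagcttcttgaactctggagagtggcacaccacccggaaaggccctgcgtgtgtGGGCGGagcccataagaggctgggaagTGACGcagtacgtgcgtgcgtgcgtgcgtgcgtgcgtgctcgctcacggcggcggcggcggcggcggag
Clk3, chr8:67061650-67061899, minus strand: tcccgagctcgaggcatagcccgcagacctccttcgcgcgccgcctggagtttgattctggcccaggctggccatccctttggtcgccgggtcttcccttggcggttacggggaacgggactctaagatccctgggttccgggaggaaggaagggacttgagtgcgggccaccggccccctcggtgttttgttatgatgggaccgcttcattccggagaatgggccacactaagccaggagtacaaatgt
Clk4, chr10:36025490-36025739, plus strand: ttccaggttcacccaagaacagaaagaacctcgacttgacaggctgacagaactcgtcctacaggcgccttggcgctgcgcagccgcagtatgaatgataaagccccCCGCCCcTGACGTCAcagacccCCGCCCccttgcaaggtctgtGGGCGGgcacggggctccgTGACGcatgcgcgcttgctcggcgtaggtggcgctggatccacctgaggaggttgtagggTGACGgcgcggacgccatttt
Srsf6, chr3:172008822-172009071, plus strand: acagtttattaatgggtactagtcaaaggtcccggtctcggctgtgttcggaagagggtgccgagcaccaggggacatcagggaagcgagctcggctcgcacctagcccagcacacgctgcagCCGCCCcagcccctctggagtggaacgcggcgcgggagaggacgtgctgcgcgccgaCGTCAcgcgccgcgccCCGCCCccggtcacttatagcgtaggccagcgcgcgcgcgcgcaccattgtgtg
Hnrnph2, chrX:102073999-102074248, plus strand: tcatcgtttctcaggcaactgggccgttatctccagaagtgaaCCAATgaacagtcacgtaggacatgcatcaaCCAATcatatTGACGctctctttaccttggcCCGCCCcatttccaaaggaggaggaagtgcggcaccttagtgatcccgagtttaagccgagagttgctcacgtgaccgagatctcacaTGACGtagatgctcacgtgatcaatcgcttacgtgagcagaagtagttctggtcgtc
The full element TGACGTCA was in 1 of the 23 promoters of higher genes, in 0 of the 22 of lower genes and 1 of the 27 of genes that did not pass, against 2.93% of the 9680 promoters of tested genes. Its core TGACG, which every full element contains, was in 52.2% of promoters of higher genes, 45.5% of lower genes and 48.1% of those that did not pass, against 27.6% of tested genes. CCAAT was in 43.5%, 59.1% and 44.4% of these 3 classes and in 34.5% of tested genes, and GGGCGG in 52.2%, 59.1% and 51.9%, against 57.7%. The 72 upstream windows of the 65 matched genes were 59.4% G and C, against 60.1% for tested genes. A match describes the letters of the window and is not a measured binding site.

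**Figure D2:**
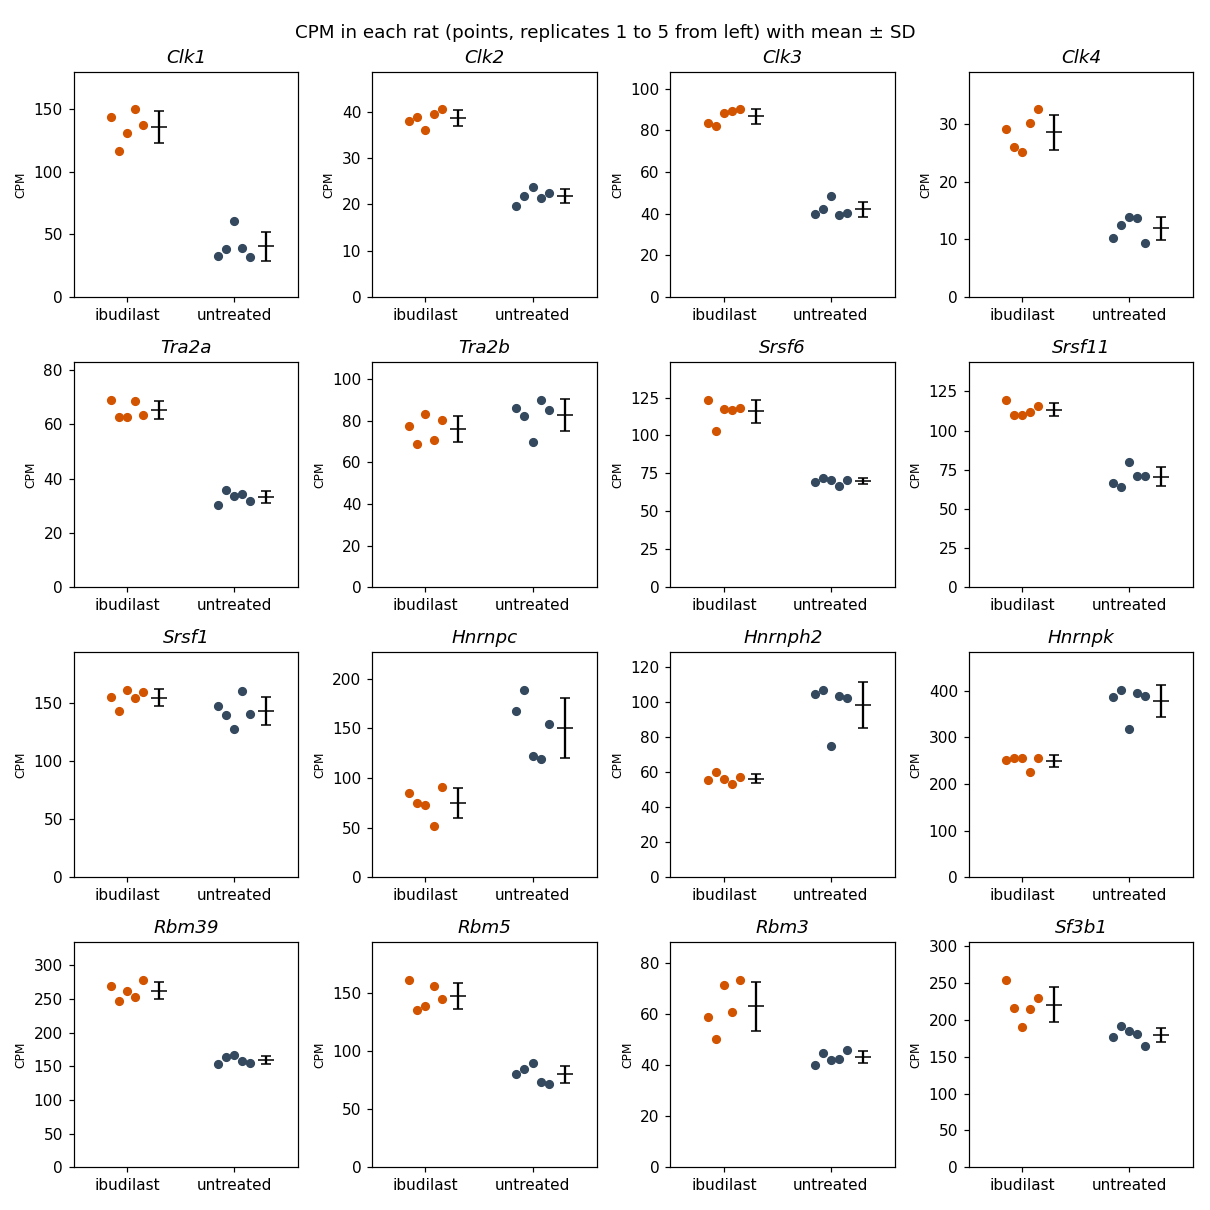
CPM of 16 of the genes in each rat, on linear axes that begin at 0; points are rats, ibudilast left and untreated right, and bars are mean ± SD (n = 5). The CLK kinases, Tra2a, Srsf6, Srsf11, Rbm39, Rbm5 and Rbm3 lie higher in every ibudilast rat, Hnrnpc, Hnrnph2 and Hnrnpk lie lower, and Tra2b, Srsf1 and Sf3b1 overlap.

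The transformer-2 genes, whose products bind GAA-rich exonic enhancers, parted. Tra2a was at 69.1, 62.8, 62.6, 68.6 and 63.4 CPM in ibudilast rats, against 30.2, 36.0, 33.7, 34.3 and 31.7 CPM in untreated rats. The groups were clearly separate (log2 fold change 0.98 ± 0.07, adjusted p = 1.03e-05). Tra2b was at 76.2 ± 6.21 CPM in ibudilast rats and 82.7 ± 7.73 CPM in untreated rats (SD, n = 5), with overlap and a log2 fold change of −0.12 ± 0.08 (adjusted p = 0.272). Without untreated replicate 3 it was at −0.20 (adjusted p = 0.0335). Whether the 2 paralogs differ in their response was not tested.

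Among the SR proteins, 6 of the 11 genes rose, 2 fell and 3 did not pass. Of the 8 classical members, Srsf1 to Srsf7 and Srsf9, 5 rose and 0 fell, and all 8 had positive log2 fold changes, from 0.10 to 0.73. Positive values were seen for 6379 of all 12356 genes tested. Srsf6, a regulator of Tau exon choice, was at 124, 103, 117, 117 and 118 CPM in ibudilast rats, against 69.2, 71.8, 70.9, 66.7 and 70.4 CPM in untreated rats. Untreated rats differed little from each other, and every ibudilast rat was far above them (0.73 ± 0.06, adjusted p = 2.04e-05). Srsf11, which acts with the neuronal factor SRRM4 on microexons, was at 120, 110, 110, 112 and 116 CPM in ibudilast rats, against 66.8, 64.0, 79.9, 70.7 and 71.04 CPM in untreated rats (0.69 ± 0.07, adjusted p = 4.16e-05). Srsf11 too had no overlap.

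Smaller rises were seen for Srsf2, also known as SC35 and a mark of nuclear speckles, at 159 ± 4.59 CPM in ibudilast rats and 122 ± 4.37 CPM in untreated rats. Its log2 fold change was 0.39 ± 0.05 (adjusted p = 2.55e-04). Srsf5 rose by 0.37 ± 0.07 (adjusted p = 0.00125) and Srsf7 by 0.30 ± 0.07 (adjusted p = 0.00384). For Srsf7, ibudilast replicate 2 was the lowest of its group at 34.3 CPM. Srsf1, the founding SR protein, was at 155 ± 7.25 CPM in ibudilast rats and 144 ± 12.1 CPM in untreated rats (adjusted p = 0.225), and Srsf3 at 119 ± 8.59 CPM in ibudilast rats and 110 ± 6.45 CPM in untreated rats (adjusted p = 0.199). Srsf3 passed only with upper-quartile factors, at 0.16 (adjusted p = 0.0427). The 2 that fell are not classical members. Srsf10, a splicing repressor when dephosphorylated, was at 11.4 ± 1.58 CPM in ibudilast rats and 16.0 ± 1.52 CPM in untreated rats (−0.49 ± 0.11, adjusted p = 0.00510). Srsf12, at −0.39, had an adjusted p of 0.0471 that rose above 0.05 in 8 of the 10 fits without 1 rat. These 2 were named after their values were seen.

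HNRNP genes moved mostly the other way, with 10 of 16 lower, and 14 had negative log2 fold changes. Among all 12356 genes tested, 5977 had negative values. Hnrnpk, a poly(C) binding protein, was at 251.7, 256, 257, 226 and 255 CPM in ibudilast rats, against 388, 403, 319, 395 and 388 CPM in untreated rats. The groups did not overlap, and untreated replicate 3 was nearest to the ibudilast rats (−0.60 ± 0.08, adjusted p = 2.32e-04). Hnrnph2, which binds runs of G, was at 55.4, 60.1, 56.3, 53.2 and 57.0 CPM in ibudilast rats, against 105, 107, 75.1, 104 and 102 CPM in untreated rats (−0.81 ± 0.10, adjusted p = 1.09e-04). Again untreated replicate 3 was the lowest of its group.

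Hnrnph1, the near-identical relative of Hnrnph2, was at 150 ± 7.71 CPM in ibudilast rats and 132 ± 6.89 CPM in untreated rats (0.19 ± 0.06, adjusted p = 0.0285), a call that was lost in 6 of the 10 fits without 1 rat. The counting may have divided reads of the pair, which makes both values uncertain, and Hnrnph1 was named for that reason. Hnrnph1 and Hnrnph2 summed to 207 ± 7.86 CPM in ibudilast rats and 230 ± 19.5 CPM in untreated rats, with overlap (SD, n = 5 each, exact permutation test, two-sided, p = 0.0476, adjusted p = 0.0635 over 4 sums). Hnrnph1 made up 72.7% of the sum in ibudilast rats and 57.4% in untreated rats.

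Hnrnpc, which binds uridine tracts of nascent transcripts, had the largest fall of the 71 genes and was named for it after its values were seen. It was at 85.1, 75.2, 72.9, 51.7 and 90.8 CPM in ibudilast rats, against 168, 189, 122, 119 and 155 CPM in untreated rats (−1.003 ± 0.17, adjusted p = 8.81e-04). Both groups were spread wide, yet they did not overlap. Hnrnpf had a log2 fold change of −0.55 ± 0.09 (adjusted p = 8.74e-04), with ibudilast replicate 1 the highest of its group at 121 CPM and still below every untreated rat. Hnrnpul1 was at 140 ± 2.26 CPM in ibudilast rats and 175 ± 4.80 CPM in untreated rats (−0.32 ± 0.05, adjusted p = 6.02e-04).

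Hnrnpa2b1, which carries mRNAs such as that of myelin basic protein into cell processes, was at 247 ± 10.9 CPM in ibudilast rats and 294 ± 17.6 CPM in untreated rats. Its log2 fold change was −0.25 ± 0.07 (adjusted p = 0.0117), and with library size alone −0.18 (adjusted p = 0.0818). Hnrnph3 rose, with 56.3 ± 3.40 CPM in ibudilast rats and 42.2 ± 2.87 CPM in untreated rats (0.42 ± 0.07, adjusted p = 7.22e-04). In GRCr8 its locus overlaps Rufy2, which was at 0.51 (adjusted p = 7.02e-04). Hnrnpu, a nuclear scaffold protein, was at −0.14 (adjusted p = 0.120) and passed without untreated replicate 3 (−0.19, adjusted p = 0.0263). Hnrnpl, which binds CA repeats, was at 309 ± 21.6 CPM in ibudilast rats and 312 ± 24.5 CPM in untreated rats (adjusted p = 0.931).

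**Figure D3:**
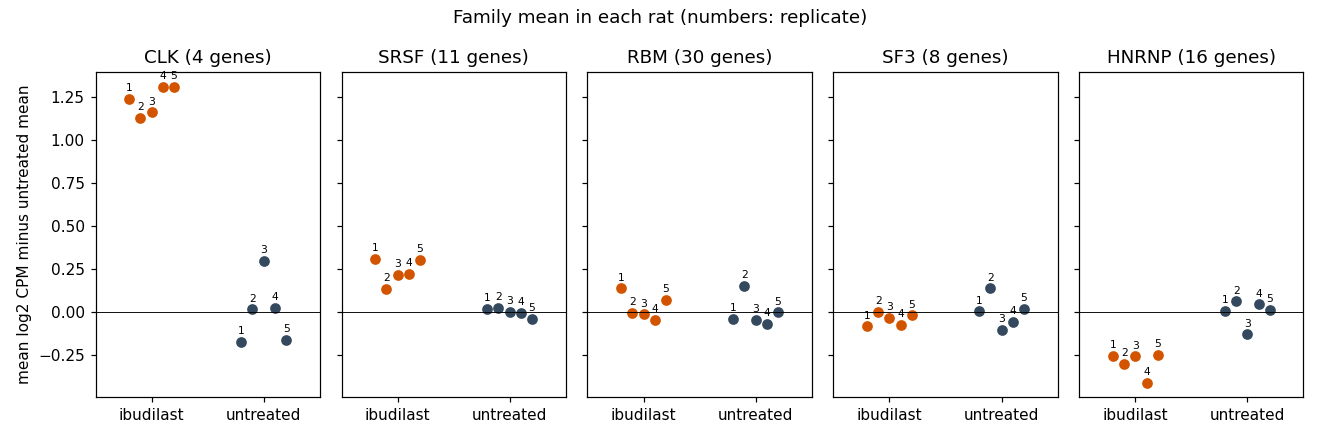
Mean log2 CPM of each family in each rat minus the untreated mean of that family; numbers are replicates, ibudilast left and untreated right. CLK means of ibudilast rats lie 1.13 to 1.31 above 0 and SRSF means 0.14 to 0.31 above it, HNRNP means lie 0.25 to 0.41 below it, and RBM and SF3 means overlap between the groups.

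Family means were also taken rat by rat. CLK means of ibudilast rats were 1.13 to 1.31 log2 units above the untreated mean, against −0.17 to 0.30 in untreated rats, where replicate 3 was the highest. SRSF means were 0.14 to 0.31 above it in ibudilast rats and −0.039 to 0.024 in untreated rats. HNRNP means were at −0.41 to −0.25 in ibudilast rats, lowest in replicate 4, and at −0.13 to 0.062 in untreated rats, lowest in replicate 3. Thus untreated replicate 3 was the untreated rat nearest to the ibudilast group for both CLK and HNRNP genes, while for SRSF genes it was in the middle of its group. Leaving it out changed the totals to 20 higher and 26 lower of the 71, and those of all genes tested to 24.7% higher and 26% lower. RBM and SF3 means overlapped.

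RBM genes were the largest family: 7 rose, 4 fell and 19 did not pass, 36.7% passing against 47.1% of all genes. Rbm39, a cofactor related to U2AF, was at 269, 246, 262, 253 and 278 CPM in ibudilast rats, against 154, 164, 167, 158 and 156 CPM in untreated rats. Each ibudilast rat was far above each untreated rat (0.71 ± 0.06, adjusted p = 2.28e-05). Rbm5, a regulator of apoptosis gene splicing, was at 162, 136, 139, 157 and 145 CPM in ibudilast rats, against 80.6, 84.7, 89.7, 74.1 and 72.3 CPM in untreated rats (0.88 ± 0.08, adjusted p = 2.83e-05). Its locus overlaps that of its relative Rbm6 in GRCr8, and Rbm6 was at 0.19 ± 0.06 (adjusted p = 0.0253), a call lost in 5 of the 10 fits without 1 rat; Rbm6 is given for this overlap. The sum of both lay between 186 and 216 CPM in ibudilast rats and between 120 and 132 CPM in untreated rats (n = 5 each, exact permutation test, two-sided, p = 0.00794, adjusted p = 0.0159 over 4 sums). Neither Rbm5 nor Rbm6 overlapped between the groups, so their sum had to separate and its p was fixed by their values.

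Rbm10, the other close relative of Rbm5, rose to 80.7 ± 5.17 CPM in ibudilast rats, against 59.1 ± 2.44 CPM in untreated rats (0.45 ± 0.06, adjusted p = 2.70e-04), and ibudilast replicate 4 was the lowest of its group at 71.8 CPM. Rbm25, a U1-associated factor, was at 152 ± 11.2 CPM in ibudilast rats and 110 ± 2.62 CPM in untreated rats (0.47 ± 0.06, adjusted p = 2.38e-04). Rbm3, a cold-inducible protein tied to synapse maintenance in mice, was at 59.0, 50.5, 71.6, 61.0 and 73.6 CPM in ibudilast rats, against 40.3, 44.8, 42.2, 42.4 and 46.2 CPM in untreated rats. Ibudilast rats varied more, yet all lay above the untreated ones (0.55 ± 0.10, adjusted p = 0.0014). The other cold-inducible gene of this class, Cirbp, named after its values were seen, was at 0.56 ± 0.12 (adjusted p = 0.00268).

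The RBM genes that fell were Rbm12, Rbm24, Rbm26 and Rbm45, named because they are few. Rbm24, known for muscle splicing, was at 5.48 ± 1.31 CPM in ibudilast rats and 8.61 ± 0.718 CPM in untreated rats (−0.65 ± 0.17, adjusted p = 0.00818). Rbm26, of the nuclear RNA decay machinery, was at −0.32 ± 0.06 (adjusted p = 0.00213), and Rbm12 at −0.48 ± 0.09 (adjusted p = 0.0015). Rbm45, at −0.31, lost its call in 9 of the 10 fits without 1 rat. Rbm28, of the nucleolus, and Rbm4 were nearest to no difference: Rbm28 was at 24.8 ± 1.78 CPM in ibudilast rats and 24.7 ± 2.35 CPM in untreated rats, and Rbm4 at 21.4 ± 1.33 CPM in ibudilast rats and 21.4 ± 2.29 CPM in untreated rats. The sum of Rbm4 and its paralog Rbm4b was 36.9 ± 1.92 CPM in ibudilast rats and 37.6 ± 1.32 CPM in untreated rats (SD, n = 5 each, exact permutation test, two-sided, p = 0.492 before and after adjustment).

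Rbm47, an RNA-binding protein of epithelia, was named for its spread after its values were seen. It was at 10.3 CPM in ibudilast replicate 1 and 0.279 to 1.30 CPM in the other ibudilast rats, against 14.9 CPM in untreated replicate 2 and 0.852 to 1.503 CPM in the other untreated rats. These are the 2 rats in which choroid plexus markers summed to 7010 and 7570 CPM. No difference between the groups passed (−0.53 ± 1.07, adjusted p = 0.717). Of the 71 genes, 10 averaged under 10 CPM in untreated rats, and 2 of these passed.

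**Figure D4:**
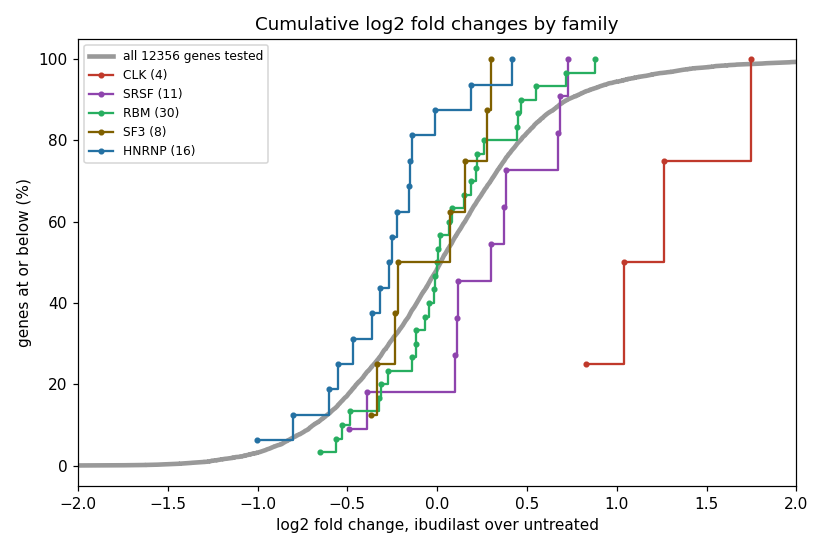
Share of genes at or below each log2 fold change, ibudilast over untreated, for 5 families (numbers of genes in brackets) and for all 12356 genes tested (grey). The CLK curve lies right of all genes, with its lowest member at 0.83, and the HNRNP curve lies left of all genes over most of its range.

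In the U2 complex the changes were small and went both ways. Sf3a3 was at 41.7 ± 1.09 CPM in ibudilast rats and 34.4 ± 2.07 CPM in untreated rats (0.28 ± 0.06, adjusted p = 0.00321). Sf3a1 fell, at 79.8 ± 7.15 CPM in ibudilast rats and 101 ± 4.43 CPM in untreated rats (−0.33 ± 0.07, adjusted p = 0.00322). So 2 subunits of the same SF3A trimer changed in opposite directions, and the remaining one, Sf3a2, did not pass (0.16 ± 0.09, adjusted p = 0.185). Sf3b1, the large subunit that clasps the branch site, was at 254, 216, 190, 214 and 229 CPM in ibudilast rats, against 176, 191, 185, 181 and 164 CPM in untreated rats (0.30 ± 0.08, adjusted p = 0.0137), with overlap.

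Its partners Sf3b3, Sf3b2 and Sf3b4 fell. Sf3b4, outside the naming rule and given to complete the 4 lower SF3 genes, was at −0.23 ± 0.09 (adjusted p = 0.0471). That call was lost in 8 of the 10 fits without 1 rat. Sf3b3 was at 49.5 ± 1.09 CPM in ibudilast rats and 63.9 ± 9.45 CPM in untreated rats (−0.37 ± 0.10, adjusted p = 0.00895), and with library size alone it missed the threshold (−0.31, adjusted p = 0.0504). Sf3b2 was at −0.22 ± 0.07 (adjusted p = 0.0247), a call lost under several alternatives, among them without untreated replicate 5 (adjusted p = 0.0593), without ibudilast replicate 1 (0.0556), without the 4 libraries named above (0.0639) and with library size alone (0.101). Sf3b5 was at 51.8 ± 3.50 CPM in ibudilast rats and 49.2 ± 3.13 CPM in untreated rats (adjusted p = 0.404). The largest change of the family, in either direction, was that of Sf3b3.

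The groups did not overlap for 20 of the 71 genes on the higher side and 15 of the 71 on the lower side. Among all 12356 genes tested these counts were 2223 (18.0%) and 1909 (15.4%), or 4132 (33.4%) in either direction. The 4 CLK, 6 SRSF, 6 RBM, 2 HNRNP, 1 SF3 and 1 TRA2 gene were on the higher side, and 8 HNRNP, 3 RBM, 3 SF3 and 1 SRSF gene on the lower side. The median log2 fold change was 0.51 among the 22 higher genes and −0.37 among the 20 lower ones. Of the 42 genes that passed, 29 kept their call under every alternative, 18 higher and 11 lower. The share of kept calls among all genes that passed was not calculated, so these counts cannot be compared with it.

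Other genes of the splicing machinery were taken from lists. Of 29 measured core small nuclear ribonucleoprotein genes 10 rose, 3 fell and 16 did not pass. That is 34.5% higher and 10.3% lower, against 24.3% and 22.8% of all genes tested, and 44.8% passing against 47.1%. Snrnp70, the U1 protein that SR proteins contact, was at 156 ± 11.99 CPM in ibudilast rats and 65.6 ± 13.7 CPM in untreated rats (1.25 ± 0.13, adjusted p = 4.59e-05). Snrnp48, of the minor spliceosome, was at 1.10 and the U5 helicase Snrnp200 at −0.53. Of 37 genes of spliceosome assembly and remodelling, 18 rose (48.6%), 6 fell (16.2%) and 13 did not pass, among the higher ones Pnn at 1.00, Luc7l at 0.78 and Acin1 at 0.70. As background, Snrnp70 and Luc7l belong to or join the U1 particle, and Pnn and Acin1 reside in nuclear speckles.

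Of 36 neuronal splicing regulators and related RNA-binding proteins tested, 7 rose, 18 fell and 11 did not pass. Rbfox2 was at 25.2 ± 2.70 CPM in ibudilast rats and 48.9 ± 4.27 CPM in untreated rats (−0.96 ± 0.09), and Khdrbs1, also known as SAM68, was at −0.56. Srrm3, a microexon regulator, rose by 0.89 ± 0.08. Of the excitatory neuron markers, 4 of 10 were lower and 6 did not pass, and their sums overlapped between the groups, as given above. Of 16 other kinases and phosphatases that act on SR proteins or are related to those that do, 2 rose, 5 fell and 9 did not pass. Dyrk1a was at −0.61, Hipk3 at −1.11 and Ppp1cb at −0.85, while the 2 that rose, named because they are few, were the kinase Prpf4b at 0.25 (adjusted p = 0.0289) and the phosphatase subunit Ppp1ca at 0.31 (adjusted p = 0.0263). The main SR protein kinases of the cytoplasm, Srpk1 and Srpk2, given for that role and outside the naming rule, did not pass, at −0.15 (adjusted p = 0.0522) and −0.078 (adjusted p = 0.474). Of 11 exon junction and nonsense-mediated decay genes, 3 rose, 4 fell and 4 did not pass, with Upf3b at 0.65, Casc3 at −0.46 and Rnps1 at −0.23. Prpf4b was also counted among the genes of spliceosome assembly. Shares higher and lower were 19.4% and 50% for the neuronal regulators and 12.5% and 31.2% for the kinases and phosphatases. For the exon junction and decay genes they were 27.3% and 36.4%. The shares are to be read against 24.3% higher and 22.8% lower of all genes.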

How the data were processed

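RNA of 10 left hippocampi, 1 rat per library, was compared as 5 ibudilast and 5 untreated samples, grouped by sample title. Per the labels, libraries were stranded mRNA libraries. The authors deposited expected counts per gene symbol, not normalized, of which 12% were not whole, and a TMM-normalized signal, which equals the rounded count times 1 constant per library. Tools named in the submitters' processing notes, with no role or order, are RSEM 1.2.15, Bowtie2 2.1.0, edgeR and bcl2fastq, with build rn6; the annotation and strand setting are not given in the sources used here. Symbols alone identified genes, so paralogs and overlapping loci are uncertain.

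Expected counts were rounded and tested with edgeR 4.0.16 (quasi-likelihood F test, robust, TMM factors, filterByExpr, R 4.3.3) over 12356 of 17168 rows, with Benjamini-Hochberg adjustment at 0.05. The test was checked on simulated data. CPM used TMM-scaled library sizes, and family means used log2 CPM with a prior count of 2. SE is the log2 fold change divided by the root of F. Alternatives were other factors, filters, DESeq2 1.42.0, limma 3.58.1 on log2 of the signal plus 1, a replicate block and left-out rats. Counts recovered from the signal were whole in 100% of values (tolerance 0.01) and, in an alternative chosen after seeing the data, gave 3004 higher and 2813 lower genes, the counts of the main test. No libraries of a group agreed within sampling noise (lowest chi-square per gene 11.5). Log2 CPM correlated at 0.941 or more within groups.

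Members and lists were chosen with earlier results of these data known. Named genes were all CLK and TRA2 genes, in each other family the 5 smallest p among genes that passed with at least 1 CPM and the 2 largest p, and Rbm3, Srsf1, Hnrnpa2b1, Hnrnpk, Rbm39 and Sf3b1, with up to 3 genes per list. Results of the marker lists are given as summed CPM where used: astrocyte, interneuron, microglia and endothelial lists had 4, 3, 4 and 5 genes lower, 1 interneuron gene was higher, and 0 of 5 choroid plexus genes passed.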

Additional observations from a re-analysis of the deposited data

Results flagged for a closer look

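Single rats stood apart from the other 4 of their group for 8 of the 70 groups checked, by the gap to the nearest rat relative to the range; chance gives about 1 in 20. In untreated replicate 3, Clk1 was the highest of its group at 60.7 CPM (next 39.0), and Hnrnph2 at 75.1 CPM (next 102) and Hnrnpk at 319 CPM (next 388) were the lowest. This rat also had the highest ribosomal RNA share of the untreated group, 11.4%, and the part of that in these values was not tested. In ibudilast replicate 4, Hnrnpk at 226 CPM (next 252), Hnrnpu at 362 CPM (next 399) and Rbm10 at 71.8 CPM (next 80.8) were the lowest of their group. This rat had the lowest excitatory neuron sum, 2470 CPM, and that too was not tested. Srsf7 was lowest in ibudilast replicate 2, at 34.3 CPM (next 40.2), and Hnrnpf highest in ibudilast replicate 1, at 121 CPM (next 96.9).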

How the results depend on the processing

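Counts of higher and lower genes stayed within 1.5 times under most alternatives, with these exceptions, whose cause was not tested. Lower genes were 12 of the 71 with library size alone and 13 with the replicate block, against 20. Of all genes tested, 18.6% and 18% were lower in these 2 settings, against 22.8%. The block also gave 1 lower SRSF, 1 higher HNRNP, 1 higher SF3 and 2 lower SF3 genes, with adjusted p of 0.0569 for Sf3b1, 0.0728 for Sf3b2 and 0.0552 for Hnrnpa2b1. Nothing in the labels says that equal numbers pair the rats. Deviations of same-numbered rats correlated at −0.328 to 0.418, and 1 of 5 ibudilast rats correlated best with its own number. So few correlations cannot decide whether rats were paired. SRSF genes lower were 1 with upper-quartile factors, library size alone and without the 4 libraries, against 2. HNRNP genes higher were 1 without a filter and without the 4 libraries, against 2, and SF3 genes lower were 1 with library size alone, against 4. Leaving out 1 rat gave 19 to 22 higher and 16 to 26 lower genes in all, 1 to 2 lower SRSF, 1 to 2 higher HNRNP and 2 to 4 lower SF3 genes. The 35 family members named by rule, list genes and those named after their values were seen apart, kept direction and side of the threshold in 662 of 700 recalculations, were weaker in 9 and stronger in 4, and changed sign in 25, all of genes near 0 that passed in none of these. Among the alternatives, the counts recovered from the signal repeated the main test, so that setting could change no call. Rbm28 was at −0.0154 with RLE factors, −0.0251 without a filter, −0.0177 with DESeq2 and −0.00365 with limma-trend. Rbm4 was at −0.0166, −0.0266, −0.0171 and −0.00323 in these. Hnrnpl was at 0.0332 with upper-quartile factors, 0.059 with library size alone and 0.0988 without the 4 libraries. Without 1 rat they ran from −0.0572 to 0.0311, −0.065 to 0.0324 and −0.0478 to 0.0113. The rarest member, Rbm46, had 203 reads over all 10 libraries, which limits what can be seen for the lowest genes.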
